A study of Arabidopsis thaliana with 8 samples.

Results

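The comparison described here sets 2 arrays of as1-1 tfl2-1 double mutant seedlings against 2 arrays of as1-1 seedlings, and so shows how transcript levels differ when the tfl2-1 mutation is added to plants that already carry as1-1. The arrays were chosen by their titles, 4 of the 8 of the series, and all probes other than controls were considered. The RNA came from entire Arabidopsis thaliana seedlings, labelled as ecotype Col-0, at an age of 12 days. They grew on MS medium; the temperature was 22 °C, and lamps of about 100 µE m-2 s-1 were on for 16 h and off for 8 h each day. Both carry the as1-1 mutation; the double mutant carries tfl2-1 as well. The remaining 4 arrays, 2 of wild type (WT) and 2 of the tfl2-1 single mutant, grown in the same way, give the difference that tfl2-1 makes in plants with AS1. The labels call the arrays duplicates without saying whether they came from separate cultures, so p-values measure the spread between these samples, which may be technical.

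TFL2, also known as LHP1, is a chromodomain protein that binds the repressive histone H3 mark set by Polycomb group complexes and helps to keep developmental genes silent. Plants that lack it are small, have curled leaves and flower early. AS1 is a MYB-type transcription factor that, with AS2, keeps class I KNOX homeobox genes, which act in the shoot meristem, off in leaves.

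Each array carried 43603 probes besides controls, of which 29244 to 31612 were well above background, and no spot was saturated. Values are given as scaled signals, the scanner's processed intensity after the 75th percentile of every array was set to a common level, and compared as log2 differences, as1-1 tfl2-1 minus as1-1, each with its standard error (SE) from the fit. A gene rose or fell when limma's adjusted p over the 22668 genes tested was under 0.05. Across genes, which are not replicates, the arrays of as1-1 correlated with r = 0.998 and so did those of the double mutant, and arrays of the 2 genotypes correlated with r of 0.960 to 0.961. The as1-1 and WT arrays lay on 1 slide and both tfl2-1 genotypes on another, so in this comparison slide and mutation cannot be told apart. The 8 spike-in probes above background on all arrays, whose RNA is added in equal amounts, differed by -0.176 to -0.108 on the log2 scale between the groups. For changes of that size the direction rests on the scaling. An interaction, the difference made by tfl2-1 in as1-1 plants minus that in AS1 plants, crosses the slides in the same way on both sides, so that a slide effect equal in both cancels. The spike-in probes gave interactions of -0.0796 to 0.0645.

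TFL2 mRNA (AT5G17690) had signals of 1022 and 1102 on the as1-1 arrays and 666 and 681 on those of the double mutant, with no overlap. It was 1.58-fold lower in the double mutant (log2 difference -0.66 ± 0.061, n = 2 per genotype, adjusted p = 0.00022). AS1 mRNA (AT2G37630) gave 1744 and 1759 in as1-1 and 2389 and 2629 in the double mutant, against 2526 and 2411 in WT. Both genotypes carry as1-1, and still AS1 mRNA was 1.43-fold higher in the double mutant (0.52 ± 0.061, adjusted p = 0.000639). The files do not place either probe relative to the mutation, so that these signals show transcript levels and not whether the product is functional.

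Many transcripts differed between as1-1 tfl2-1 and as1-1. In the double mutant 7368 genes (32.5% of those tested) were higher than in as1-1 and 6565 (29.0%) were lower. The median size of a called difference was 0.488 on the log2 scale. At least 2-fold changes were 1154 rises and 1380 falls, and at least 4-fold changes 327 rises (1.44% of genes) and 358 falls (1.58%), with genes below background in 1 group counted at their lower bound. For such genes the fold is given below as a lower bound, against the lowest signal well above background. Where normexp background correction, which draws dim signals together, made a log2 difference over 1.5 times smaller, its value is given beside the fold or difference. Some of these values lie below the lower bound, which holds for the main background correction. When the arrays were scaled to the spike-in probes, which moved the median difference of all genes from 0.0373 to 0.203, there were 5952 rises and 2853 falls, so that 67.6% of calls were rises in place of 52.9%. In whole seedlings, fewer cells of a type and less RNA per cell cannot be told apart, and this holds for every gene group below.

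Most of the large changes were also seen when tfl2-1 was compared with WT, a comparison that shares no array with this one, although it crosses the same slides. Of the 327 genes that rose at least 4-fold in as1-1 plants, 302 (92.4%) also rose in AS1 plants, against 26.2% of all genes. The 327 include genes that entered the test only through genotypes with tfl2-1, AP3 and SEP2 among them. For such genes the filter favours a rise in both backgrounds, and their share of the 302 was not determined. Of the 358 that fell at least 4-fold, 305 (85.2%) also fell, against 28.4% of all genes. Over the 22668 genes the differences in as1-1 and in AS1 plants correlated with r = 0.764 (Spearman's rho = 0.752), a description across genes measured on the same 2 slides. The interaction passed the threshold for 4597 genes, positive in 2405 (10.6%) and negative in 2192 (9.67%). That count moved with the processing, to 1978 without the filter on dim probes, 1500 with scaling to the spike-in probes and 2719 to 3039 when 1 array of as1-1, tfl2-1 or as1-1 tfl2-1 was left out.

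**Figure D1:**
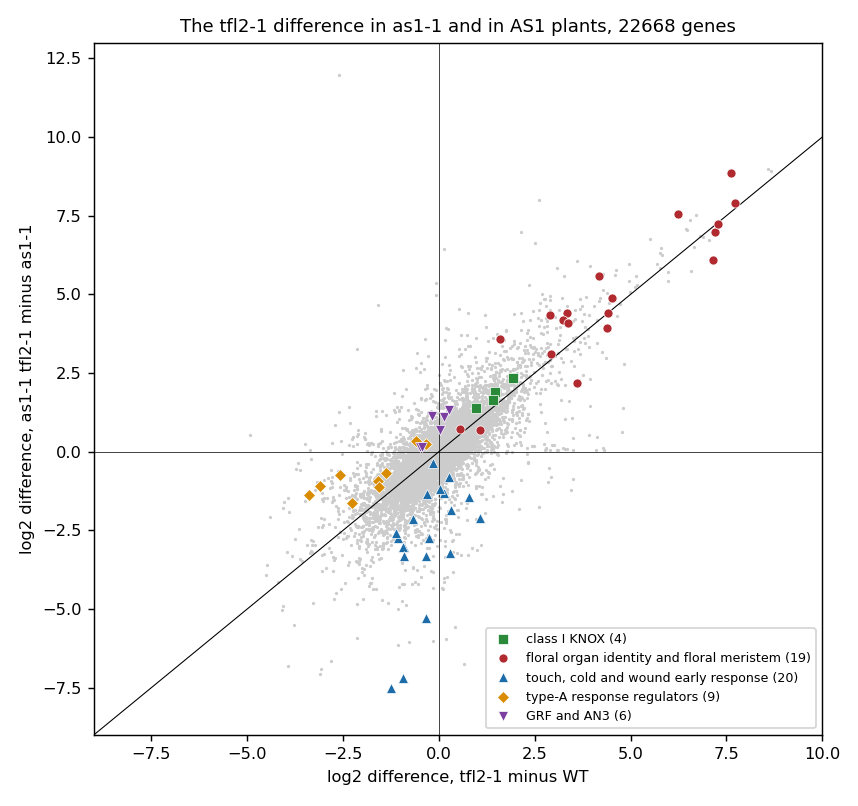
Log2 difference made by tfl2-1 in as1-1 plants (vertical axis, as1-1 tfl2-1 minus as1-1) against that in AS1 plants (horizontal axis, tfl2-1 minus WT) for 22668 genes in grey, with the members of 5 gene lists in colour; on the diagonal line both differences are equal. Floral genes lie far out near the diagonal, touch and cold genes lie below it, and type-A response regulators and GRF genes lie above it.

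The class I KNOX genes, the homeobox genes that AS1 keeps off in leaves, were all higher in the double mutant than in as1-1. KNAT2 (AT1G70510) had signals of 234 and 229 in as1-1 and 1150.4 and 1196 in as1-1 tfl2-1, a 5.06-fold rise (log2 difference 2.34 ± 0.058, adjusted p = 1.61e-06). STM (AT1G62360), which maintains the shoot meristem, gave 463 and 511 in as1-1 and 1759 and 1824 in as1-1 tfl2-1 (log2 difference 1.88 ± 0.073, adjusted p = 6.89e-06), and its other probe gave a difference of 1.99. KNAT6 gave 412 and 368 in as1-1 and 1132 and 1281 in as1-1 tfl2-1 and rose 3.09-fold (1.63 ± 0.087). KNAT1, also called BREVIPEDICELLUS, gave 629.5 and 609 in as1-1 and 1568 and 1643 in as1-1 tfl2-1 and rose 2.59-fold (1.37 ± 0.056). In none of the 4 did the as1-1 and double mutant arrays overlap. All 4 rose, against 32.5% of all genes, and their median difference was 1.75, against 0.0373 over all genes.

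The same 4 genes rose with tfl2-1 in AS1 plants too, where 26.2% of all genes rose. The log2 differences there were 1.93 for KNAT2, 1.47 for STM, 1.4 for KNAT6 and 0.97 for KNAT1. The difference between the backgrounds was 0.41 for KNAT2 (adjusted p = 0.02), 0.41 for STM (0.0395) and 0.40 for KNAT1 (0.0197), each larger in as1-1 plants, and 0.23 for KNAT6 (0.236), which did not pass. These interactions were small, and over 17 alternative settings between 0 and 4 of the 4 passed, with adjusted p up to 0.488 for KNAT2, 0.491 for STM and 0.498 for KNAT1.

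Of the 4 class II KNOX genes, which act outside the meristem, 3 rose, against 32.5% of all genes. They rose by less: KNAT3 by 0.58, KNAT5 by 0.30 and KNAT4 by 0.26 on the log2 scale. The second probe of KNAT3 gave 1.90, and the calls of KNAT4 and KNAT5 were lost in 4 and 3 of 18 alternative settings. KNAT7 gave 189 and 188 in as1-1 and 182 and 195 in as1-1 tfl2-1, and its probes differed in sign. The BELL homeodomain proteins pair with KNOX proteins. Of 7 BELL genes 4 rose and 2 fell (median 0.25), against 32.5% and 29.0% of all genes. RPL rose 2.50-fold, from 2975 and 3329 to 8272 and 7511, PNF 2.36-fold and BLH1 1.93-fold, whereas BLH4 fell 2.09-fold. ATH1 was at 1133 and 1144 in as1-1 and 1079.6 and 1233 in as1-1 tfl2-1, while with tfl2-1 in AS1 plants it fell by 1.04 on the log2 scale (interaction 1.06 ± 0.11, adjusted p = 0.00242).

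Genes of floral organ identity and the floral meristem had the highest median difference of the 27 lists. Of the 19 listed genes 12 entered the test only through genotypes with tfl2-1, a filter that favours a rise in as1-1 and in AS1 plants. Of these 12, 8 were below background on both as1-1 arrays. The other 7 all rose in as1-1 plants, against 32.5% of all genes. SEP1 (AT5G15800), a MADS-box gene that acts in floral organs, had signals of 18.6 and 22.8 in as1-1 and 3296 and 2922 in as1-1 tfl2-1, a 151-fold rise (log2 difference 7.24 ± 0.11, adjusted p = 4.5e-07), and its second probe gave 6.36. SEP3 (AT1G24260), a further member of that family, gave 230.2 and 225 in as1-1 and 16304 and 15090 in as1-1 tfl2-1, 69.0-fold higher (6.11 ± 0.061, adjusted p = 2.33e-07). AP1, which specifies the floral meristem, was among the 12 that entered only through genotypes with tfl2-1. It gave 3.57 and 32.9 in as1-1, a wide spread, and 1978 and 2109.5 in the double mutant (7.56, SE 0.95, 5.0 after normexp, adjusted p = 0.0008). The carpel genes SHP1 and SHP2 rose 21.1-fold and 29.7-fold (log2 difference 4.89, 2.95 after normexp), and FUL rose 18.2-fold, from 141 and 142 to 2733 and 2424. SHP2 was also among those 12.

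Among the genes below background in as1-1, AP3 (AT3G54340), which specifies petals and stamens, reached 1709.6 and 1682 in the double mutant and was at least 124-fold higher (log2 difference 4.64 after normexp). SEP2 reached 1149 and 1167 (at least 84.9-fold, log2 difference 4.11 after normexp), AG, which specifies stamens and carpels, 799.6 and 874 (at least 61.3-fold, log2 difference 3.58 after normexp), and AGL6 446 and 438 (at least 31.8-fold, log2 difference 2.62 after normexp). LFY, STK, CRC and SUP stayed at signals between 45.3 and 90.4 in the double mutant, with lower bounds of 5.07-, 6.22-, 4.37- and 3.51-fold. After normexp their log2 differences were smaller than these bounds, at 1.06, 1.01, 1.04 and 0.93. The smallest rises of the list were in SEP4 (1.62-fold) and AP2 (1.65-fold). The median log2 difference of the 19 was 4.40, and 2.62 after normexp. In AS1 plants the median of the same genes was 4.18.

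Not all floral genes rose equally in the 2 backgrounds. PI, the partner of AP3, was already at 679 and 687 in as1-1 against 224 and 205 in WT. It rose by 2.17 on the log2 scale in as1-1 plants and by 3.61 in AS1 plants (interaction -1.44 ± 0.091, adjusted p = 0.000426). SEP3 rose by 6.11 and 7.15 (interaction -1.04 ± 0.086, adjusted p = 0.00106). Its signals were lower in the double mutant than in the tfl2-1 single mutant, where they were 22313 and 24046. FUL went the other way, with 4.18 and 3.24 (interaction 0.95 ± 0.16, adjusted p = 0.0116). Of the 19 interactions 6 passed, 3 in each direction, against 10.6% positive and 9.67% negative over all genes. The others were those of AP3, AGL6 and SEP4. Their calls were lost in 8 of 16, 11 of 16 and 10 of 17 alternative settings.

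Among regulators of flowering time, 9 of 16 tested genes rose and 3 fell (median 0.82, 0.58 after normexp), against 32.5% and 29.0% of all genes. FT (AT1G65480), the mobile signal that starts flowering, had signals of 58.7 and 56.3 in as1-1 and 756 and 703 in as1-1 tfl2-1, a 12.7-fold rise (log2 difference 3.66 ± 0.071, adjusted p = 8.62e-07). Its levels in the double mutant lay below those of the tfl2-1 single mutant, 2126 and 2378, as those of as1-1 lay below the 154 and 151 of WT. TFL1, of the same protein family but a repressor of flowering, gave 24.5 and 25.7 in as1-1 and 485 and 481 in as1-1 tfl2-1 (4.27, SE 0.089, 2.61 after normexp, adjusted p = 1.04e-06). BFT, a further member, moved the other way, from 71.0 and 74.3 to 18.5 and 23.5 (-1.80, SE 0.15, -0.72 after normexp, adjusted p = 0.000136). In AS1 plants BFT was at 126 and 99.4 in WT and 117 and 112 in tfl2-1 (interaction -1.83 ± 0.21, adjusted p = 0.00324).

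The MADS-box gene AGL17 entered the test only through genotypes with tfl2-1; it was below background in as1-1 and gave 555 and 519 in the double mutant, at least 39.3-fold higher (log2 difference 3.14 after normexp). AGL24 and AGL19 rose 3.43-fold and 3.98-fold (log2 difference 1.99, 0.91 after normexp) and CO, which activates FT, 2.44-fold. The floral repressor SVP fell 1.69-fold, from 6601 and 7136 to 4151 and 3963. FLC, a repressor of flowering, was at 718 and 702 in as1-1 and 692 and 712 in as1-1 tfl2-1 (difference -0.017 ± 0.061, adjusted p = 0.821), whereas it rose by 0.59 in AS1 plants (interaction -0.60 ± 0.087, adjusted p = 0.00707). The probes of FLC differed in sign. Among the MAF genes, of the FLC clade of flowering repressors, MAF5 (log2 difference 1.11, 0.66 after normexp) and MAF2 (0.53) rose. MAF4 fell (-0.35), and MAF1 and MAF3 did not pass.

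The 5 listed SPL genes, which promote the change to the adult and the reproductive phase, all rose, against 32.5% of all genes. SPL4 (AT1G53160) had signals of 579.8 and 559 in as1-1 and 4057 and 4101 in as1-1 tfl2-1, a 7.16-fold rise (2.84 ± 0.059, adjusted p = 1.01e-06). SPL3 gave 1243 and 1301 in as1-1 and 7143 and 6724 in as1-1 tfl2-1 (5.45-fold) and SPL9 577 and 671 in as1-1 and 2091 and 2129.7 in as1-1 tfl2-1 (3.39-fold). SPL5 was uneven within groups, at 33.9 and 21.6 in as1-1 and 511 and 255 in as1-1 tfl2-1, and its call was lost when as1-1 replicate 2 or as1-1 tfl2-1 replicate 1 was left out (limma's adjusted p up to 0.053). SPL15 rose by 0.47 (0.30 after normexp) on the log2 scale (adjusted p = 0.0433), from 101 and 147 to 173 and 166, but this call was lost in 12 of 18 alternative settings, and the difference was 0.21 without as1-1 replicate 1. SPL4 and SPL9 rose more in as1-1 than in AS1 plants, by 0.80 ± 0.083 and 1.06 ± 0.12 (adjusted p = 0.00229 and 0.00274).

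**Figure D2:**
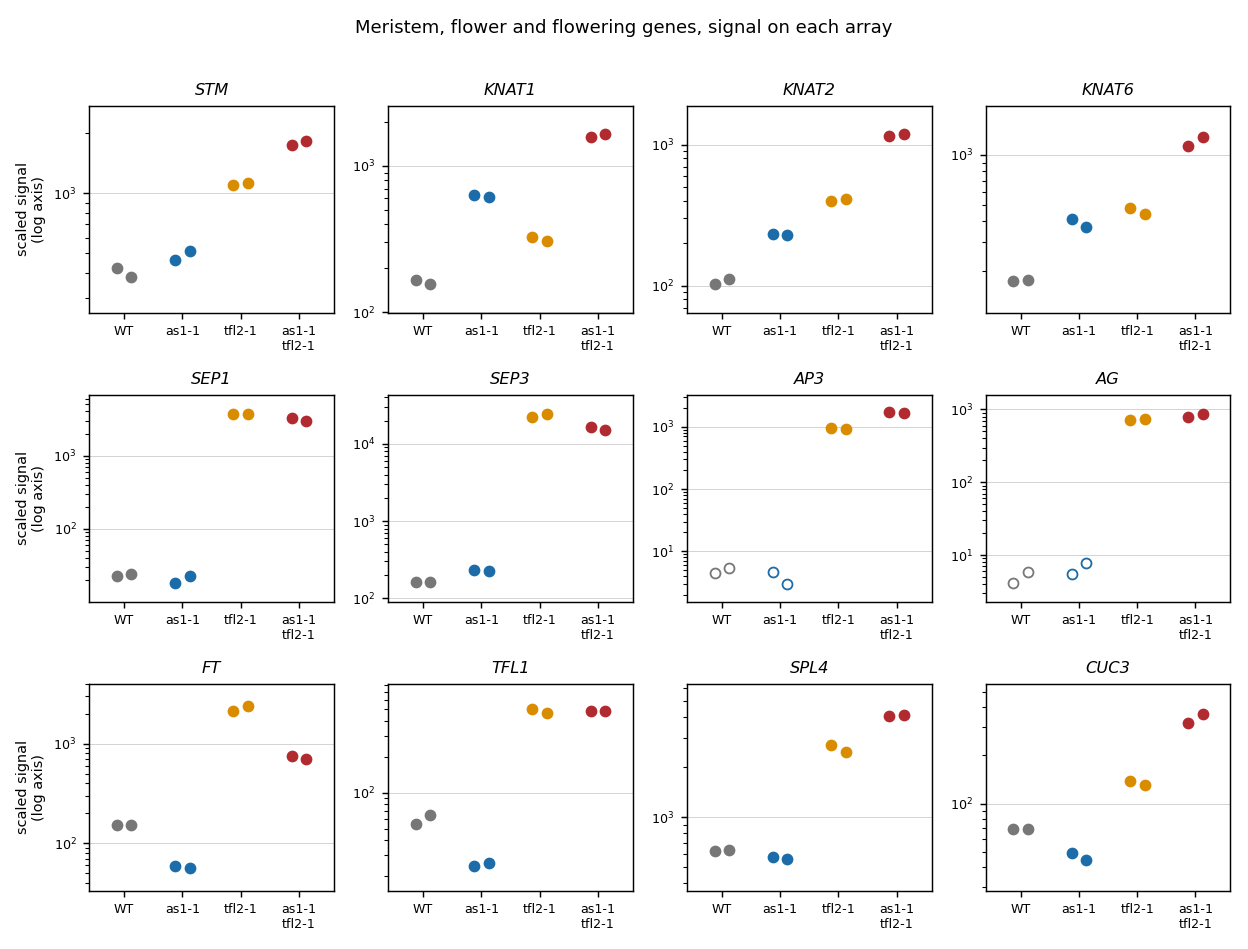
Scaled signal (vertical axes, log scale, intensity units) of 12 genes on each of the 8 arrays, 1 point per array, grouped by genotype; open points mark probes not above background on either array of a genotype. All 12 genes are higher on both as1-1 tfl2-1 arrays than on both as1-1 arrays.

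Genes of the shoot meristem and of the boundaries between organs rose in 9 of 10 tested cases, against 32.5% of all genes. Of these, LAS entered the test only through the double mutant. The median of the list was 1.74, or 1.47 with 2 genes at their lower bound, and 1.05 after normexp. CUC3 (AT1G76420), a boundary gene, had signals of 49.2 and 44.4 in as1-1 and 317 and 361 in as1-1 tfl2-1 (2.86, SE 0.081, 1.75 after normexp, adjusted p = 2.34e-06). CUC2 gave 21.9 and 33.5 in as1-1 and 179.6 and 184 in as1-1 tfl2-1 and CUC1 25.1 and 26.8 in as1-1 and 101 and 105 in as1-1 tfl2-1, so that all 3 CUC genes rose, by 2.74 (1.30 after normexp) for CUC2 and 1.99 (0.86 after normexp) for CUC1. LOB, a boundary gene, was below background in as1-1 at 12.9 and 12.9 and reached 194 and 209.6, at least 13.4-fold higher (log2 difference 1.78 after normexp), while its second probe gave a log2 difference of 2.90, below that bound. In WT, LOB was at 135 and 154. BOP2, which acts at the leaf base, rose 2.80-fold. The receptor gene CLV1 was at 7967 and 7956 in as1-1 and 7959.7 and 8233 in as1-1 tfl2-1. With tfl2-1 in AS1 plants CUC3, LOB and BOP2 rose by 0.95, 1.23 and 0.73 on the log2 scale. The interactions were 1.90 ± 0.11 for CUC3 and 0.75 ± 0.074 for BOP2 (adjusted p = 0.00037 and 0.00194).

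Of 15 tested genes of upper and lower leaf identity 7 rose and 2 fell (median 0.22), against 32.5% and 29.0% of all genes. YAB5 (AT2G26580), a gene of the YABBY family that marks the lower leaf side, stood out with 10967 and 10496 in as1-1 and 2010 and 1939 in as1-1 tfl2-1, a 5.43-fold fall (-2.44 ± 0.052, adjusted p = 1.09e-06). In AS1 plants its log2 difference was -2.33, from 3618 and 3412 in WT to 701 and 695 in tfl2-1, so that as1-1 lay above WT and the double mutant above tfl2-1. The other YABBY genes tested, FIL, YAB2 and YAB3, did not pass the threshold. REV, of the HD-ZIP III class of the upper side, rose 1.67-fold, and KAN2, of the KANADI class of the lower side, 1.47-fold. HB-8, which marks forming veins, fell 1.46-fold. AS2, whose protein works with AS1, rose 1.46-fold, from 117 and 97.3 to 159.7 and 153.

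Growth regulators of the leaf moved in both directions. Over all genes 32.5% rose and 29.0% fell. The CIN-type TCP genes, which bring cell division in the leaf to an end, fell in 6 of 8 cases and rose in 2 (median -0.42). TCP4 gave 10976 and 10974 in as1-1 and 4796 and 4415 in as1-1 tfl2-1, a 2.39-fold fall, and TCP3 fell 2.26-fold, while TCP5 rose 1.52-fold. With scaling to the spike-in probes 3 of the 6 falls passed. The GRF genes and their partner AN3, which promote cell division in young leaves, rose in 4 of 6 cases and fell in none (median 0.89). AN3 gave 1185 and 1382 in as1-1 and 3265 and 3089 in as1-1 tfl2-1 (2.48-fold), GRF5 517 and 505 in as1-1 and 1099.5 and 1124 in as1-1 tfl2-1 (2.18-fold) and GRF3 1309 and 1318 in as1-1 and 2734 and 2892 in as1-1 tfl2-1 (2.14-fold). In AS1 plants the median of the 6 was -0.080, with 3 falls and no rise, against 28.4% and 26.2% of all genes there. All 6 interactions were positive and passed the threshold, from 0.60 for GRF2 to 1.31 ± 0.075 for GRF5, against 10.6% of all genes. Over 17 alternative settings 3 to 6 of them passed, all positive. Of 14 mitotic cell cycle genes 9 rose and none fell, against 32.5% and 29.0% of all genes. They changed by little: the median was 0.25, CDKB2;1 rose 1.63-fold and CYCB2;1 1.56-fold (log2 difference 0.64, 0.42 after normexp).

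The type-A response regulators are induced by cytokinin and dampen its signal. Of 9 tested, 7 fell and 2 rose (median -0.92), against 29.0% and 32.5% of all genes. ARR16 (AT2G40670) had signals of 838 and 911 in as1-1 and 309 and 255 in as1-1 tfl2-1 (-1.64 ± 0.10, adjusted p = 4.04e-05), ARR15 539.8 and 532 in as1-1 and 193 and 217 in as1-1 tfl2-1 (2.62-fold lower) and ARR6 1330 and 1254 in as1-1 and 606 and 599 in as1-1 tfl2-1 (2.14-fold lower). ARR9 and ARR8 rose, by 0.35 and 0.23 on the log2 scale. The call of ARR8 was lost in 10 of 18 alternative settings. In AS1 plants all 9 fell with tfl2-1, with a median of -1.60, against 28.4% of all genes there. ARR6 there went from 1904 and 1984 to 231 and 218. The interaction of ARR6 was 2.01 ± 0.078 (adjusted p = 7.57e-05), that of ARR15 2.00 ± 0.10 (0.000184) and that of ARR7 1.84 ± 0.093 (0.000179). In all, 8 of the 9 interactions were positive and passed, against 10.6% of all genes, and between 4 and 8 over 17 alternative settings.

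Of 8 tested genes that make or break down cytokinin, 3 rose and 2 fell, near the 32.5% and 29.0% of all genes. Of the 3 rises 2, CKX3 and IPT5, entered the test only through genotypes with tfl2-1. CKX3, a cytokinin oxidase gene, was below background in as1-1 and reached 355 and 361 in the double mutant (at least 26.3-fold, log2 difference 2.78 after normexp). CKX4, of the same family, fell from 668 and 676 to 45.9 and 50.6 (13.9-fold, adjusted p = 8.93e-07). IPT3, a synthesis gene, rose 2.1-fold.

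Of 9 tested genes of gibberellin metabolism 8 fell and 1 rose, against 29.0% and 32.5% of all genes. The median was -2.45, or -1.31 with 2 genes at their lower bound, and -0.79 after normexp. GA3OX1 (AT1G15550), which makes active gibberellin, had signals of 1188 and 1127 in as1-1 and 209 and 215 in as1-1 tfl2-1, a 5.45-fold fall (-2.45 ± 0.064, adjusted p = 1.84e-06). Genes of the opposite function fell as well: GA2OX6, which inactivates gibberellin, went from 1938 and 2098 to 352 and 329 (5.93-fold, adjusted p = 1.64e-06). GA2OX6 stood at 934 and 889.5 in WT and 582 and 605 in tfl2-1, so that as1-1 held the highest levels (interaction -1.95 ± 0.09, adjusted p = 0.000136). GA20OX2, a synthesis gene, was the rise (2.28-fold, log2 difference 1.19, 0.43 after normexp, from 26.4 and 21.7 to 52.0 and 57.5).

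The Aux/IAA genes, which auxin induces and whose proteins repress auxin responses, fell in 11 of 13 cases and rose in none (median -1.74). Among all genes 29.0% fell and 32.5% rose. IAA29 (AT4G32280) had signals of 902 and 931 in as1-1 and 16.4 and 24.2 in as1-1 tfl2-1 (-5.52, SE 0.17, -3.51 after normexp, adjusted p = 3.13e-06). IAA5 gave 367 and 361 in as1-1 and 19.8 and 21.8 in as1-1 tfl2-1 (17.5-fold lower, log2 difference -4.13, -2.42 after normexp) and IAA19 1481 and 1554 in as1-1 and 129.7 and 126 in as1-1 tfl2-1 (11.9-fold lower). IAA6 fell from 570.0 and 565 to below background, at least 39.9-fold (log2 difference -3.26 after normexp). The falls were also seen in AS1 plants, where the same count of 11 of 13 fell with a median of -1.62. Among all genes 28.4% fell there. IAA19 fell further in as1-1 plants (interaction -1.5 ± 0.067, adjusted p = 0.000123). Of the auxin synthesis genes TAA1 fell 3.93-fold, from 1986 and 1887 to 484 and 501, and YUC2 3.11-fold (log2 difference -1.64, -1.0 after normexp), while YUC1 and YUC4 rose 1.92-fold (log2 difference 0.94, 0.43 after normexp) and 1.91-fold (log2 difference 0.93, 0.33 after normexp).

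**Figure D3:**
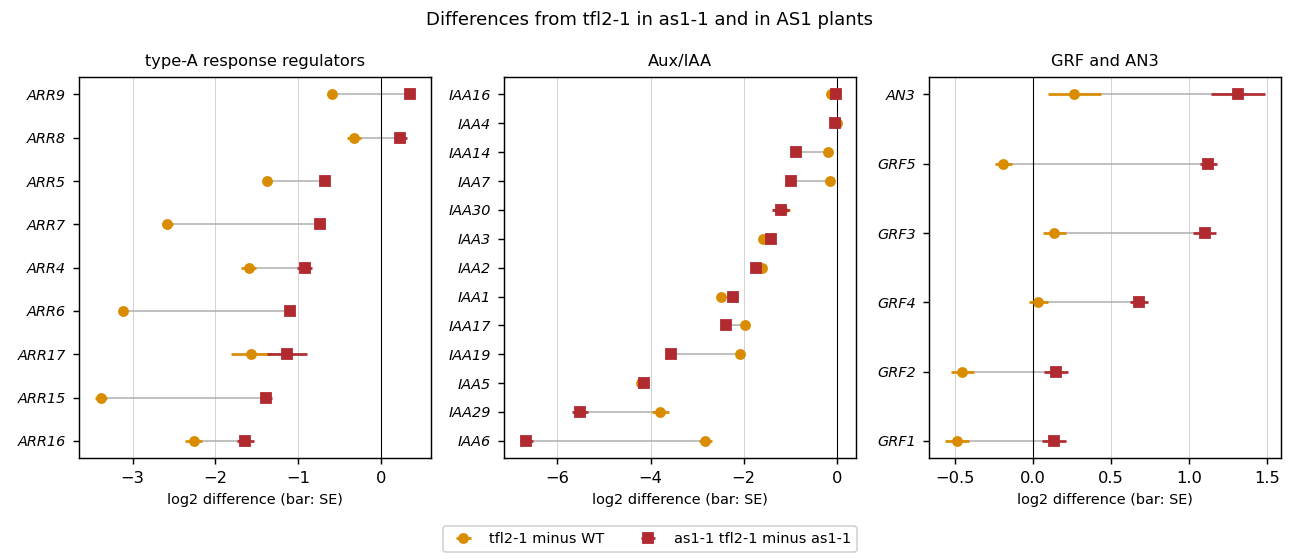
Log2 differences (horizontal axes, bars give the SE) made by tfl2-1 in AS1 plants (circles, tfl2-1 minus WT) and in as1-1 plants (squares, as1-1 tfl2-1 minus as1-1) for the type-A response regulators, the Aux/IAA genes and the GRF genes with AN3. The squares lie to the right of the circles for all 9 response regulators and all 6 GRF and AN3 genes; IAA6 and ARR17 were below background in the double mutant, so that their squares are fitted values, not bounds.

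Genes that respond within minutes to touch, cold or wounding fell in all 20 of the tested cases (median -2.66), against 29.0% of all genes. In each of the 20 both as1-1 arrays were the highest of the 8. CBF1 (AT4G25490), a regulator of cold tolerance, had signals of 2826 and 2506 in as1-1 and 70.9 and 65.7 in as1-1 tfl2-1, a 39.0-fold fall (-5.29 ± 0.079, adjusted p = 4.5e-07). WT gave 156 and 169 and tfl2-1 132 and 127. DDF1, of the same family, went from 2795 and 2640.4 to below background, at least 159.6-fold, and CBF2 from 821 and 784 to below background, at least 56.4-fold (log2 difference -3.80 after normexp). TCH4, a cell wall enzyme gene induced by touch, gave 19086 and 19574 in as1-1 and 2381 and 2355 in as1-1 tfl2-1 (8.16-fold lower, WT 6154 and 6198). SZF1, a zinc finger gene, gave 33218 and 33102 in as1-1 and 3275 and 3355 in as1-1 tfl2-1 (10.004-fold lower). WRKY40 fell 9.90-fold and ZAT10 9.25-fold. The smallest fall was that of WRKY53 (1.30-fold).

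In AS1 plants 12 of these 20 genes fell with tfl2-1 and 5 rose (median -0.32), against 28.4% and 26.2% of all genes there. The interaction was negative past the threshold for 19 of the 20 (9.67% of all genes), and for 16 to 20 over 17 alternative settings. For CBF1 it was -4.95 ± 0.11 (adjusted p = 2.01e-05) and for ZAT10 -3.50 ± 0.071 (adjusted p = 2.01e-05). ZAT10 stood at 1759.8 and 1868 in WT, 10874 and 11133 in as1-1, 2240.3 and 2206 in tfl2-1 and 1170.3 and 1209.8 in the double mutant. Such genes change within minutes of handling; how the seedlings of each genotype were harvested is not given in the sources used here, and its part in the result was not tested. The 5 cold-regulated genes that CBF proteins activate fell too (median -1.55), against 29.0% of all genes. COR15A gave 11417 and 10742 in as1-1 and 1356 and 1484 in as1-1 tfl2-1 (7.81-fold lower, limma's adjusted p = 1.1e-06). Those 5 fell in AS1 plants as well, with a median of -0.61, against 28.4% of all genes there.

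Of the 14 jasmonate genes 8 fell and 4 rose (median -0.46), against 29.0% and 32.5% of all genes. The synthesis genes AOS, AOC1, AOC2, OPR3 and LOX2 all fell, AOS from 11943 and 12632 to 3725 and 3856 (3.24-fold). LOX2 fell 1.20-fold, and its call was lost in 3 of 18 alternative settings, with a log2 difference of -0.017 after quantile normalization. The vegetative storage protein genes VSP1 and VSP2, which jasmonate induces, rose: VSP1 (AT5G24780) had signals of 830.1 and 850.0 in as1-1 and 26183 and 25474 in as1-1 tfl2-1, 30.7-fold higher (4.94 ± 0.051, adjusted p = 2.33e-07), and VSP2 650.0 and 696 in as1-1 and 18982 and 20311 in as1-1 tfl2-1 (29.2-fold). In WT the signals were 4571 and 4850.1 for VSP1, above those of as1-1, and in tfl2-1 they were 36043 and 34729. The other 3 probes of VSP1 gave differences of up to 6.04. The JAZ genes, whose proteins repress jasmonate signalling, went both ways. JAZ1 fell 3.58-fold, JAZ7 2.02-fold and JAZ5 1.72-fold, while JAZ9 rose 1.76-fold, from 5837 and 6252 to 10721 and 10522, and JAZ10 1.64-fold.

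Of 14 salicylic acid defence genes 10 fell and 2 rose (median -0.76), against 29.0% and 32.5% of all genes. CBP60G and SARD1, which activate salicylic acid synthesis, gave 1109.9 and 1238 in as1-1 and 268 and 287 in as1-1 tfl2-1 (4.22-fold lower) and 447 and 408 in as1-1 and 128 and 137 in as1-1 tfl2-1 (3.23-fold lower), and EDS5, a transporter gene, fell 3.32-fold. WRKY70 fell 2.38-fold. PR1, a marker of this response, was at 37.9 and 31.2 in as1-1 and 54.5 and 50.1 in as1-1 tfl2-1. It did not pass (limma's adjusted p = 0.174). The 2 rises were those of PBS3 (log2 difference 1.07, 0.65 after normexp) and NIMIN1 (0.68, 0.32 after normexp). The second probe of PBS3 gave 0.98. In AS1 plants 10 of the 14 fell and 1 rose, against 28.4% and 26.2% of all genes there.

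In the pathway of aliphatic glucosinolates, sulphur-rich defence compounds, 6 of 14 genes rose and 3 fell (median 0.17), near the 32.5% and 29.0% of all genes. MAM3 (AT5G23020), which elongates the side chain, fell from 1164 and 1151 to 37.9 and 41.7 (29.1-fold, adjusted p = 4.42e-07). MAM1, of the same step, rose 1.55-fold, from 22092 and 21587 to 35289 and 32472. MAM3 was at 903 and 991 in WT and 530.1 and 508 in tfl2-1 (interaction -4.00 ± 0.1, adjusted p = 2.46e-05).

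Of 11 flavonoid genes 5 rose and 5 fell (median 0.43), against 32.5% and 29.0% of all genes. TT4, F3H, TT7 and FLS1, which lead to flavonols, rose, FLS1 by 2.35-fold from 321 and 287 to 709 and 713, as did their regulator MYB12 (at least 3.22-fold, log2 difference 0.56 after normexp). DFR, LDOX and UGT75C1, which make anthocyanins, and the regulators PAP1 and TT8 fell. DFR (AT5G42800) went from 119.8 and 117 to below background, at least 8.32-fold (log2 difference -1.49 after normexp), while it was at 134 and 153 in WT and 129 and 130.1 in tfl2-1. PAP1 gave 63.5 and 115 in as1-1 and 9.23 and 14.0 in as1-1 tfl2-1 (-2.91, SE 0.37, -1.08 after normexp, adjusted p = 0.000849). LDOX was below background in the double mutant. MYB12 was so in as1-1 and entered the test only through the double mutant. The call of UGT75C1 was lost in 3 of 17 alternative settings, when as1-1 replicate 2 or either double mutant array was left out (limma's adjusted p up to 0.0851). Over probes above background on all 8 arrays, a filter that leaves out the 5 genes that fell, 4 flavonoid genes rose.

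Of 11 clock genes 5 fell and 3 rose (median -0.17), against 29.0% and 32.5% of all genes. GI gave 828 and 878 in as1-1 and 146 and 146 in as1-1 tfl2-1 (5.85-fold lower, adjusted p = 2.29e-06), ELF4 fell 2.91-fold and PRR7 2.54-fold, and RVE1 rose 4.18-fold, from 191 and 198 to 789 and 836. GI fell in AS1 plants too (log2 difference -2.57). The labels give no time of day of the harvest, and its part in these values was not tested.

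**Figure D4:**
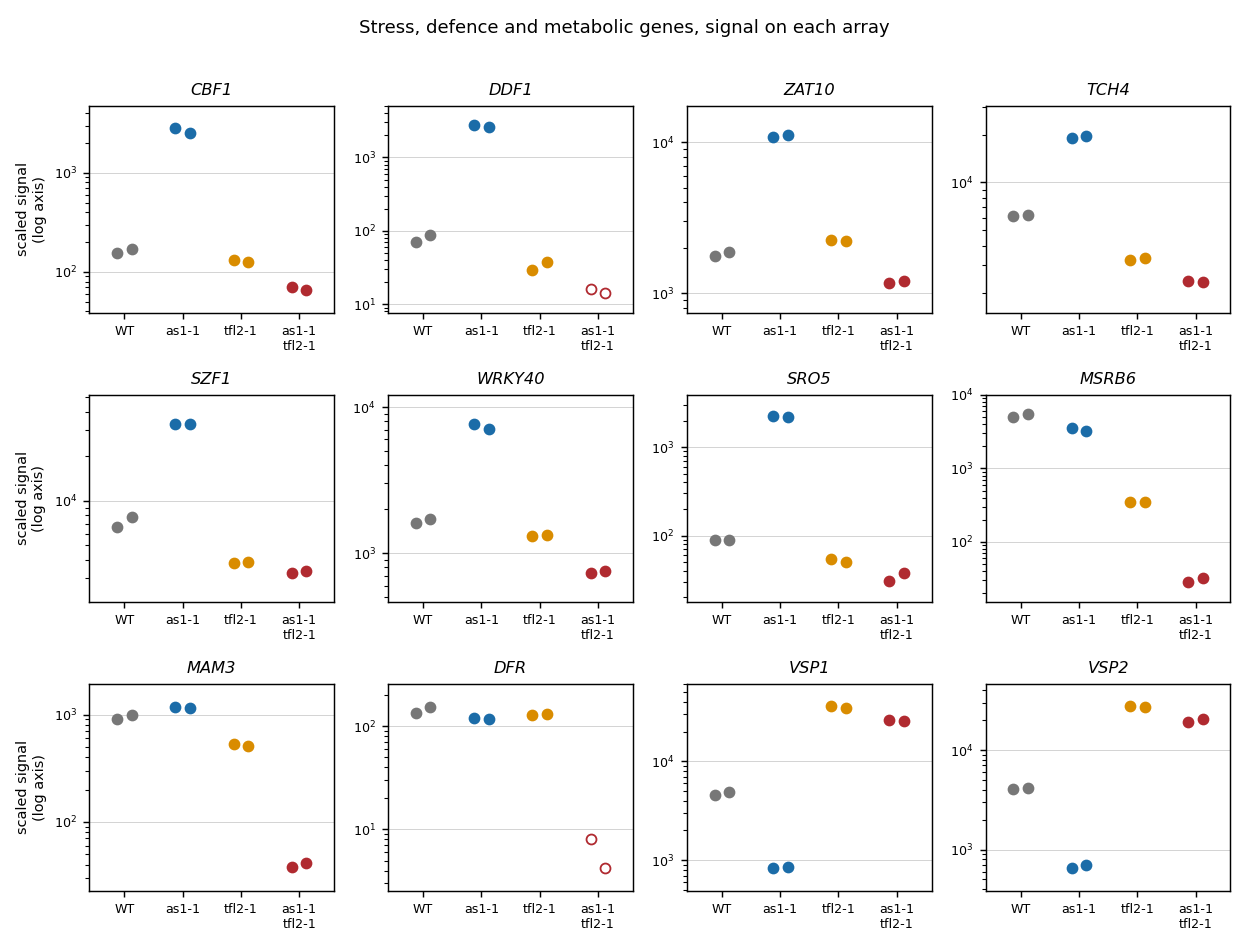
Scaled signal (vertical axes, log scale, intensity units) of 12 stress, defence and metabolic genes on each of the 8 arrays, 1 point per array, grouped by genotype; open points mark probes not above background on either array of a genotype. In CBF1, DDF1, ZAT10, TCH4, SZF1, WRKY40, SRO5 and MAM3 the as1-1 arrays are the highest of the 8. In MSRB6, MAM3 and DFR the double mutant arrays are the lowest.

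Outside these lists, large rises were those of AT3G28500, from 95.5 and 95.2 to 10319 and 10432 (109-fold), AT3G19550 (80.5-fold), the sugar transporter gene SWEET10 (62.1-fold, 35.4 and 90.6 in as1-1 and 3320.3 and 3721 in as1-1 tfl2-1) and AT5G47600 (35.6-fold). All 4 rose by 4.28 or more on the log2 scale in AS1 plants as well. Their adjusted p lay between 1.14e-07 and 5.56e-05.

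The largest fall among genes above background in both genotypes was that of MSRB6 (AT4G04840), a methionine sulfoxide reductase gene, with signals of 3595 and 3259.7 in as1-1 and 28.0 and 32.5 in as1-1 tfl2-1, 113-fold lower (-6.83 ± 0.091, adjusted p = 3.68e-07). Its log2 difference was -3.93 in AS1 plants, from 5083 and 5526 to 349 and 346. SRO5 gave 2276 and 2187 in as1-1 and 31.0 and 37.3 in as1-1 tfl2-1 (65.7-fold lower), while WT stood at 89.8 and 88.8. PHI-1 fell 28.2-fold, from 11724 and 11958 to 410.3 and 430.0. The cell wall enzyme gene XTH18 fell 22.7-fold and GPAT3, a glycerolipid acyltransferase gene, 20.5-fold. AT2G17660, AT2G27080 and AT5G17350 fell 61.2-, 26.2- and 20.5-fold. In SRO5, PHI-1, XTH18, GPAT3, AT2G17660, AT2G27080 and AT5G17350 the as1-1 arrays were again the highest of the 8. In MSRB6 the WT arrays were the highest.

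Some genes were detected in only 1 of the 2 genotypes. There were 262 genes below background on both as1-1 arrays and above it on both arrays of the double mutant. Their direction was fixed by this choice. Of the 262, 208 were below background on both WT arrays too, and 145 were above it on both tfl2-1 arrays. The largest lower bound was that of the transcript TA53053_3702, with 4.70 and 2.93 in as1-1 and 13691 and 16325 in as1-1 tfl2-1, at least 1096-fold higher (log2 difference 7.84 after normexp). It was at 6.39 and 11.4 in tfl2-1, below background, and at 65.8 and 40.8 in WT, so that a high signal was seen in the double mutant alone of the 4 genotypes. AT5G22430 and HB40, a homeobox gene, were at least 139- and 113-fold higher (log2 differences 4.84 and 4.67 after normexp) and had similar signals in tfl2-1 (1756 and 1807 for HB40). AT1G49570 reached 888 and 999, at least 69.1-fold (log2 difference 3.95 after normexp), against 63.5 and 66.8 in tfl2-1. In the other direction, 198 genes were above background on both as1-1 arrays and below it on both of the double mutant, again a choice that fixes the direction. Among these, AT1G33760 went from 956 and 951 to below background, at least 63.0-fold (log2 difference -3.88 after normexp), and was below background in WT and tfl2-1 too.

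Of genes above background on all 8 arrays, the largest positive interactions were those of 2 transcripts named by accession in the files. AY075597 was at 4648 and 5103 in WT, 60.6 and 51.9 in as1-1, 4852 and 4392 in tfl2-1 and 2286 and 2292 in the double mutant. BX825247 followed the same order, with 4064 and 4312, 71.7 and 76.9, 4078 and 3798 and 2364 and 2339.8. Both were thus low on the as1-1 arrays alone and rose 40.8- and 31.7-fold with tfl2-1. BX819228 and MRD1 were lowest in tfl2-1, MRD1 at 587 and 596 there and at 1940.4 and 1852 in the double mutant. AT4G12490 was highest in the double mutant, at 1083 and 1081, against 193 and 154 in as1-1 and 275 and 277 in tfl2-1. The largest negative interactions beside SRO5, CBF1 and AT5G17350 were those of BPS3 (-4.41 ± 0.11) and CML37 (-4.13 ± 0.14), a calmodulin-like gene. BPS3 was at 1937 and 1828 in as1-1 and between 93.0 and 181 on the other 6 arrays.

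Markers of photosynthesis moved mostly in 1 direction, while those of roots and seeds went both ways. Of the 22 photosynthesis genes tested, which mark green leaf tissue, 21 fell (median -0.75), against 29.0% of all genes. Their summed signal was 5284000 to 5335000 in as1-1 and 3176000 to 3423000 in the double mutant. With quantile normalization 13 of the 22 fell (median -0.42). LHCB3 gave 140610 and 137680 in as1-1 and 53439 and 53623 in as1-1 tfl2-1 (2.60-fold lower, adjusted p = 4.62e-06), PSAH2 fell 3.39-fold, LHCB6 2.71-fold and LHCB2.1 6.04-fold. Of 12 root markers 8 were tested. Among them 2 rose and 2 fell, against 32.5% and 29.0% of all genes. Their summed signal was 18420 to 18640 in as1-1 and 12370 to 12720 in the double mutant, most of it from PYK10, which fell 1.81-fold. The rise of SCR (0.30 on the log2 scale) turned to -0.11 when the probes of a gene were averaged, and its probes differed in sign. WOX5, which marks the root stem cell niche, was at 15.3 and 19.4 in as1-1 and below background in the double mutant. Of 12 genes of seed maturation 5 were tested, with summed signals of 334.9 to 350 in as1-1 and 293.1 to 322.2 in the double mutant. Below background on both as1-1 arrays were 4 of the 5, FUS3, ABI3, CRA1 and EM6. These 4 entered the test only through genotypes with tfl2-1, a filter that favours a rise. FUS3 rose, from below background to 37.9 and 39.1, at least 2.59-fold (log2 difference 0.34 after normexp), while EM6, counted as a fall, was below background in both genotypes. Floral markers summed to 2790 to 2792 in as1-1 and 35230 to 37220 in the double mutant, where SEP3 alone gave 16304 and 15090. Of these 19 markers 12 entered the test only through genotypes with tfl2-1. The part of tissue composition in the results above was not tested.

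**Figure D5:**
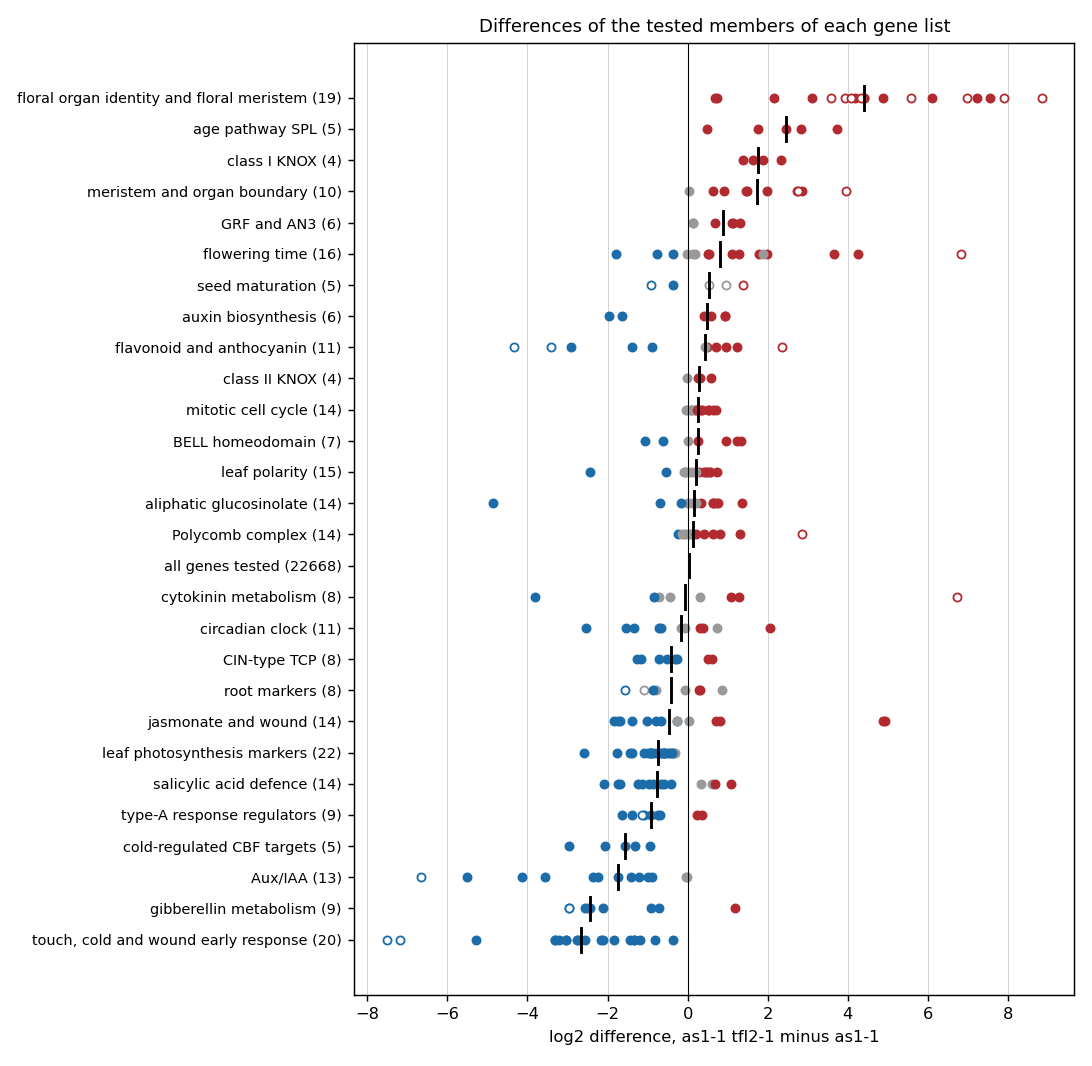
Log2 difference, as1-1 tfl2-1 minus as1-1 (horizontal axis), of every tested member of 27 gene lists, 1 point per gene; red points rose, blue fell and grey did not pass, open points mark genes below background in at least 1 of the 2 genotypes, and the black bar is the median. The number tested is given beside each list. Floral genes have the highest median (4.40) and touch, cold and wound genes the lowest (-2.66).

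Of 14 genes of the Polycomb complexes tested, 6 rose and 1 fell (median 0.13), against 32.5% and 29.0% of all genes. EMF1 (AT5G11530) had signals of 658 and 659 in as1-1 and 1588 and 1687 in as1-1 tfl2-1, a 2.49-fold rise (1.31 ± 0.051, adjusted p = 7.1e-06), and rose by 0.91 in AS1 plants. RING1B rose 1.74-fold and BMI1B 1.55-fold. CLF, which encodes a histone methyltransferase of the complex, was at 442 and 441 in as1-1 and 455 and 463 in as1-1 tfl2-1 (difference 0.055, adjusted p = 0.547). VIN3, 1 of the 6 rises, entered the test only through the double mutant, and its call was lost in 6 of 17 alternative settings.

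Some genes with large changes lay next to each other on the chromosome, which is given as a description with no test. Of 286 genes with a RefSeq locus that rose at least 4-fold, 21 (7.34%) had an adjacent gene that also did so, while 2.12% of the 19000 tested genes had an adjacent gene that rose so. Of 326 that fell at least 4-fold, 27 (8.28%) had such a neighbour, and 2.38% of the tested genes. Runs of 3 were ORP4A, ORP4B and AT4G25845 among the rises, and among the falls CBF1, CBF2 and CBF3, TIR with AT1G72910 and AT1G72920, and AT4G27652 with AT4G27654 and AT4G27657. Neighbours are often copies of each other, as in the CBF genes and VSP1 and VSP2, and the files give no probe sequences. Signals of such copies may therefore not be separate measurements.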

How the data were processed

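RNA of whole seedlings was hybridised to 8 one-colour Agilent arrays, 2 per genotype. Per the submitters' processing notes, Agilent Feature Extraction 10.7 made the scanner values. Per the file headers, the processed signal used here is a background-corrected intensity on a linear scale. The authors also deposited a table of log2 values that share 1 common distribution across arrays; how it was made is not given in the sources used here.

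The log2 processed signal was taken minus the 75th percentile of each array. Probes well above background on both arrays of at least 1 genotype were kept, 30467 of 43603, and 1 probe per gene, the one with the highest mean, gave 22668 genes, of which 19000 have a RefSeq locus. Flagged spots (67) were left out. Through accessions, 34285 probes matched a locus of RefSeq TAIR10.1; the other 9318 kept the name in the files. limma 3.58.1 in R 4.3.3 (lmFit and eBayes over all 8 arrays, 1 mean per genotype) gave two-sided p-values with Benjamini-Hochberg adjustment over all genes and a threshold of 0.05. The procedure was checked on simulated data. The number of arrays, 2 per group, limits the precision.

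Members and gene lists were chosen with earlier results of these data known. Genes named by rule were AS1, TFL2, the 4 class I KNOX genes, the 10 strongest rises and the 10 strongest falls above background, the 6 and 4 largest lower bounds, the 5 largest interactions in each direction and up to 4 members per list; every other list member named was chosen after its values were seen. Replicate numbers did not pair the samples (correlations of deviations between -0.118 and 0.0827). Alternatives were other background corrections, scalings, filters, probe summaries, the deposited values, a replicate block and leaving out each array. No promoter or probe sequences were used here, so the planned motif search was not run.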

Additional observations from a re-analysis of the deposited data

Results flagged for a closer look

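The difference that tfl2-1 makes was not equal in as1-1 and AS1 plants for 4597 genes by the interaction test in limma (adjusted p under 0.05). Of the 133 genes named by rule, 83 passed it, and 20 of these had an interaction of at least 2 on the log2 scale and signals above background on all 8 arrays.

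In 8 the interaction was positive. It was 5.43 for AY075597, 5.07 for BX825247, 3.74 for BX819228, 3.26 for AT4G12490, 2.88 for MRD1, 2.14 for VSP2, 2.03 for VSP1 and 2.01 for ARR6. In BX819228 and MRD1 nearly all of it came from the fall in AS1 plants, of -3.48 and -2.56.

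In 12 the interaction was negative. It was -5.27 for SRO5, -4.95 for CBF1, -4.45 for AT5G17350, -4.41 for BPS3, -4.13 for CML37, -4.00 for MAM3, -3.79 for AT2G17660, -3.49 for PHI-1, -3.23 for AT2G27080, -2.89 for MSRB6, -2.42 for SZF1 and -2.14 for LHCB2.1. A further 9 named genes had interactions of that size but were not above background on all arrays. Groups of 2 arrays are too small for a test of single outlying arrays.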

How the results depend on the processing

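Slide and tfl2-1 coincide, so a fit with slide as a block gives no value. With the replicate block the changed genes numbered 13444 (7074 higher, 6370 lower) and the interactions 3566; same-numbered arrays were not paired. Asking for at least 2-fold left 2534 changed genes. Scaling to the spike-in probes gave 8805 changed genes, 2853 of them lower, and 1500 interactions (805 positive, 695 negative); scaling to the median gave 44.2% rises among calls. Without the filter on dim probes there were 1978 interactions (927 positive, 1051 negative). Leaving out each array in turn gave 11761 to 13978 changed genes (6072 to 7432 higher, 5646 to 6546 lower) and 2719 to 3872 interactions (1267 to 2044 positive, 1439 to 1828 negative), and kept 82.4% to 96.8% of the calls.

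Of 5654 differences of 317 genes under the alternatives, 5432 kept their side of the threshold, and their direction where they passed it. A further 141 lost the call, 74 gained one and 7 reversed. Of 5337 interactions 4850 were kept in this sense, 392 lost the call, 90 gained one and 5 reversed. Values that passed in neither setting count as kept even where their sign changed. Reversed differences were those of SCR (-0.11) and KNAT7 (0.16) with probes averaged and of CKX1 (1.28) without as1-1 replicate 1. Those of IPMDH1 (0.0070 and 0.0084) and LHCB4.1 (0.12 and 0.12) reversed with quantile normalization and the deposited values. Reversed interactions were those of AG (0.27), CUC1 (0.32) and SHP1 (0.44) with normexp, LHCB4.1 (-0.38) with probes averaged and CKX1 (1.62) without as1-1 replicate 1. Without as1-1 replicate 2 the difference of CKX1 was -2.15 and its interaction -1.82, both in the main direction. The median of the auxin synthesis list became -0.11 and that of the root markers 0.065 without the filter, and the latter 0.28 over probes above background on all 8 arrays. The cause was not tested for any of these, beyond the fewer arrays or other probes that each setting uses. Dim signals limit the low genes: normexp made 66 differences over 1.5 times smaller, counted only among those of the 317 genes that passed in the main setting.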
